A study of Mus musculus with 23 samples.

Results

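The comparison described here set RNA from injured mouse spinal cord treated with a growth factor hydrogel against RNA from cord treated with the hydrogel CT, in the fraction precipitated through tagged astrocyte ribosomes. It holds 6 of the 23 libraries of the series, 3 in each group, chosen by their labelled treatment and fraction. All mice were young adults that carry RiboTag and a Cre recombinase under a mouse Gfap promoter, and the labels call the genotype wild type. Every animal of these groups had a severe crush at thoracic level 10, a hydrogel depot on day 2, and removal of the central 3 mm of the lesion on day 14. A further 4 libraries of the same fraction came from injury only, without a hydrogel depot. They shared the main test's fit, and so its estimate of spread, and their levels are given for some genes. RiboTag adds a hemagglutinin (HA) tag to a ribosomal protein in cells that have had Cre, so that an antibody to HA pulls down their ribosomes with the RNA being translated. The model is limited by this driver, since cells other than astrocytes that once used the Gfap promoter carry the tag too. The labels do not say what CT stands for. The series title names FGF and EGF, whereas the column names of the deposited table write BDNF_NT3Gel for the treated group and EmGel for CT. Which is right cannot be told from the labels, so the treated group is called by its label, hydrogel with growth factors. The treated libraries carry the title numbers 1685, 1687 and 1732, those of CT 1724, 1759 and 1762, and values are given in that order. The labels do not state that each number is a separate animal, so p-values reflect only how the libraries in the fit vary, which may in part be technical.

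EGF and FGF are secreted proteins that bind receptor tyrosine kinases (Egfr and its relatives, Fgfr1 to Fgfr4) and switch on the RAS, MAP kinase and PI3 kinase cascades. These cascades induce immediate early genes, cyclins and survival genes, and also their own brakes, such as the Sprouty and Spred proteins. In the injured cord both factors are known as mitogens of astrocytes and neural progenitors, and reactive astrocytes form the border of the lesion. BDNF and NT3 act through other receptor tyrosine kinases, Ntrk2 and Ntrk3.

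Fewer reads fell on protein-coding genes with growth factors. The growth factor libraries held 1522431, 282224 and 1053756 such reads, and the CT libraries held 2844703, 3231721 and 5796272. These were 14.5%, 3.55% and 9.34% of all counts against 26.3%, 30.5% and 46.0%, so the groups did not overlap. The difference of the group means was -25.1 percentage points (exact permutation test over the 6 libraries, two-sided, p = 0.10, the smallest that 3 against 3 can give). The remaining reads lay mostly on Yam1, Lars2 and other loci that collect ribosomal RNA reads, which took 85.1%, 96.4% and 90.5% of counts with growth factors and 73.4%, 69.2% and 53.6% with CT. A gap in the number of genes remained at equal depth, as the plot of libraries shows. Reduced by calculation to the 282224 reads of library 1687, the growth factor libraries would still show 5348, 5029 and 5165 protein-coding genes and the CT libraries 7053, 6563 and 6316. The 100 genes with most reads took 40.6% to 42.8% of protein-coding reads in the first group and 33.2% to 38.5% in the second. Spearman correlations across genes were 0.508 to 0.531 within the growth factor group, 0.520 to 0.613 between the groups and 0.676 to 0.686 within CT. Genes are not independent replicates, and such a correlation also falls with depth. Depth, composition and treatment cannot be told apart here. One read was worth 0.936, 3.74 and 1.32 CPM (counts per 1e6, relative to reads outside the ribosomal RNA loci and TMM scaling) with growth factors, and 0.193 to 0.330 CPM with CT. A gene listed at 0 in library 1687 may thus reach 11.2 CPM, the value of 3 reads. This floor covers counting error only.

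**Figure D1:**
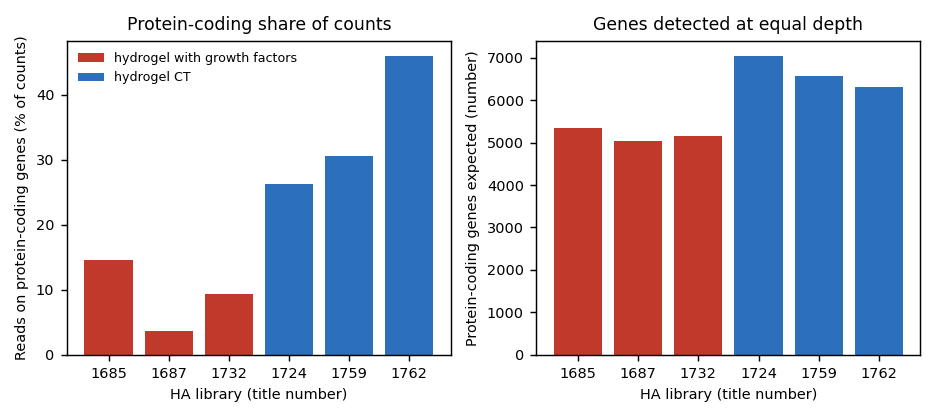
Protein-coding share of counts (left, percent) and protein-coding genes expected at 282224 reads (right, number) for each HA library, with growth factor libraries in red and CT in blue. Bars are single libraries. All 3 growth factor libraries lie below all 3 CT libraries in both panels.

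No protein-coding gene outside the ribosomal RNA loci differed between the treatments at an adjusted p under 0.05. Of 8619 such genes in the table, 6167 had enough reads to test with edgeR's quasi-likelihood test. Of these 0 passed, a called share of 0%, and the smallest adjusted p was 0.104, for AI314180. Over all 6411 genes tested 6 passed (0.0936%), namely Lars2, Yam1, Gm15564, Gm23388, Gm24187 and Gm24270, and all of them belong to the ribosomal RNA loci. They were higher with growth factors by log2 values of 3.00 to 3.37 (edgeR adjusted p = 0.0455 for each). At an unadjusted p under 0.05 stood 836 protein-coding genes (13.6%), 319 of them higher (5.17%) and 517 lower (8.38%) with growth factors. DESeq2 on the same counts called 249 protein-coding genes, 106 higher and 143 lower, and limma voom with sample weights called 1, Mcl1. The authors' deposited table lists 62 of 10389 transcript rows (0.597%) at a false discovery rate under 0.05. Of these, 50 belong to protein-coding genes, 15 higher and 35 lower with growth factors, and 21 of the 50 are at 0 in a whole group. The spread between libraries was wide, with a common coefficient of variation of 1.00 and a median standard error of 1.33 on the log2 scale. Libraries of the groups did not overlap for 1041 protein-coding genes (16.9%), 236 higher (3.83%) and 805 lower (13.1%). Overlap here and below was judged on CPM after TMM scaling, and some separations depend on it. Serpina3n, Ckb, Olig2, Nefm and Zfp106, named below, are among those that would overlap at the sizes before TMM. All growth factor libraries were at 0 for 160 genes (2.59%), and all CT libraries for 5 (0.0811%). The median log2 difference over the genes tested was -0.11 (quartiles -1.40 and 0.98), and 0.02 when DESeq2's size factors replaced TMM. Gene values below are therefore measurements with wide errors, and none of them is a call of the main test.

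**Figure D2:**
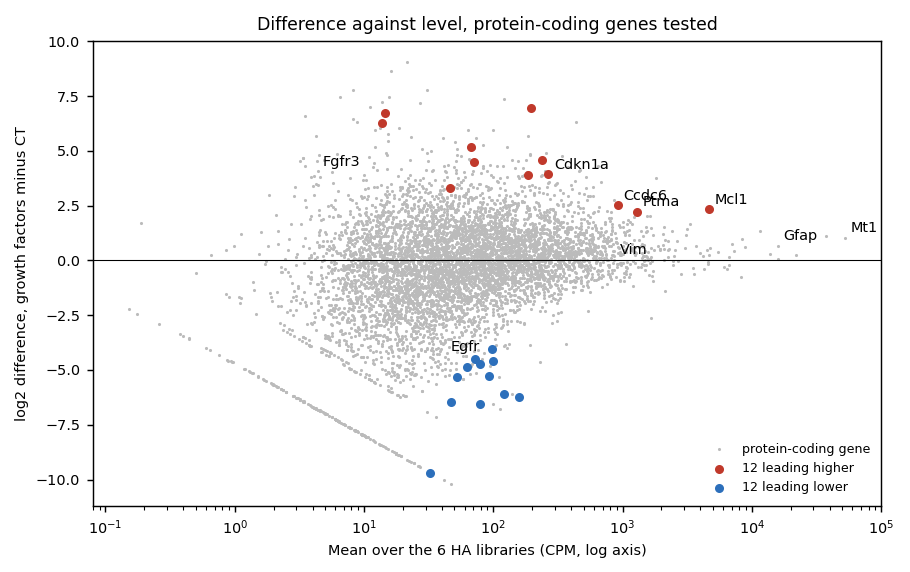
Log2 difference (growth factors minus CT) against the mean CPM over the 6 libraries (log axis) for protein-coding genes tested, one point a gene. Red and blue mark the 12 leading genes of each direction, and the slanted line of points at the lower left holds genes at 0 in all growth factor libraries. Points spread most at low CPM.

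The genes named first are the 12 of smallest p in each direction whose libraries did not overlap, so their differences are a description of that choice. Among those with higher values, the most heavily read was Mcl1, a member of the Bcl2 family that keeps mitochondria from starting apoptosis (mm10 chromosome 3, 95658788 to 95663176). It stood at 8693, 7587 and 6986 CPM with growth factors and 1554, 2172 and 899 CPM with CT. All treated libraries lay within a narrow band above every CT library, with means of 7755 ± 866 and 1542 ± 637 CPM (SD, n = 3 each). The log2 difference was 2.33 (SE 0.61, edgeR adjusted p = 0.253). DESeq2 gave an adjusted p of 0.0241 and limma voom 0.0164, and over all 22 alternatives it ranged from 0.0164 to 0.456. The authors' deposited table gives Mcl1 a log2 value of -2.17 for EmGel minus growth factor gel, at a false discovery rate of 0.0631. In the 4 libraries of injury without hydrogel Mcl1 stood at 55.2 to 379 CPM, under both hydrogel groups. Those libraries carry another range of title numbers, so hydrogel and whatever goes with that range cannot be told apart there.

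Because Mcl1 had the most reads of these genes and Egfr is the receptor the title's EGF acts on, the 250 bases before their RefSeq start sites are printed (GRCm38.p6, 5′ to 3′ on the gene's strand). The Mcl1 stretch is chr3:95658471-95658720, plus strand, and that of Egfr is chr11:16751953-16752202, plus strand. Capitals mark the ETS core CCGGAAG on either strand, a motif bound by transcription factors that MAP kinases act on.
Mcl1: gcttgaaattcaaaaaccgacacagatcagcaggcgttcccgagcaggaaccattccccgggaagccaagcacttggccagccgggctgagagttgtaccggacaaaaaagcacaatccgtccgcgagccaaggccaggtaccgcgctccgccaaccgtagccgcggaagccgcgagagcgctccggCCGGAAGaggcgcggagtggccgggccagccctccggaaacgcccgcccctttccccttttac
Egfr: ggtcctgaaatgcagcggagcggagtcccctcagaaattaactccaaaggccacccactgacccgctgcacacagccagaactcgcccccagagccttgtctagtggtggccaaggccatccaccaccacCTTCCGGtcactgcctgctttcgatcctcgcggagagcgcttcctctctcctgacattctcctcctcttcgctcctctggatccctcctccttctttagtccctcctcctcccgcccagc
Each stretch holds 1 ETS match, on the printed strand in Mcl1 and on the other strand in Egfr, which starts 63 and 120 bases before the start site. RefSeq stretches matched 4695 of the 6167 tested genes by symbol. Of their 5596 stretches 13.5% hold this core, and 6.91% of all 32851 in the table do. Neither stretch holds the cAMP response element TGACGTCA (2.98% of stretches of tested genes), the AP-1 site TGANTCA (4.06%) or a CArG box (1.07%), each searched on both strands. Stretches of Cdkn1a and Junb, searched in the same way and not printed, held 0 matches to any of these motifs. Of the stretches matched to the leading higher genes 1 of 14 (7.14%) holds the ETS core. For the leading lower genes it is 3 of 8 (37.5%). Such matches describe letters only.

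Cell cycle and stress regulators stood among the other leading higher genes. Ccdc6, a coiled-coil protein known as a tumour suppressor, was at 1437, 1759 and 1517 CPM with growth factors against 274, 369 and 174 with CT, a log2 difference of 2.53 (SE 0.57, edgeR adjusted p = 0.169). Its treated libraries agreed closely and lay far above CT. Cdkn1a encodes p21, an inhibitor of cyclin-dependent kinases, and stood at 181, 516 and 806 against 43.2, 36.9 and 18.7 CPM. Here too the lowest treated library, 1685, was above the highest CT library (log2 3.92, SE 0.94). Junb, an AP-1 transcription factor induced by growth factors, had 60 reads over the treated group and 3 over CT, a ratio of CPM of 110.0 (95% interval 35.9 to 548) by counting error alone. Fadd, the adaptor of death receptors, stood at 49.6, 284 and 61.9 against 5.61, 2.42 and 2.51 CPM. Ptma encodes prothymosin alpha, an abundant nuclear protein of dividing cells, and was at 1288, 3776 and 1312 against 488, 624 and 243 CPM (log2 2.23, SE 0.62). In Fadd and Ptma library 1687 was the highest, and the groups did not overlap.

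The other leading higher genes had varied roles. Pgf, placental growth factor of the VEGF family, stood at 46.8, 382 and 624 CPM with growth factors and 9.24, 26 and 34.4 with CT. The treated libraries spread widely, yet the lowest of them was above all CT libraries. Cd34, a surface sialomucin of endothelium and blood progenitors, had 74 reads against 2, a CPM ratio of 203 (95% interval 54.4 to 1712) by counting error alone. Ap1s1, a subunit of the clathrin adaptor AP-1, was at 295, 41.2 and 75.1 against 5.28, 10.3 and 2.70 CPM, and Dlgap1, a scaffold of the postsynaptic density, was at 31.8, 138 and 81.7 against 4.62, 9.37 and 11 CPM. For both, the highest library of all was one without hydrogel (Ap1s1 99.9 to 348 CPM, Dlgap1 157 to 729 CPM). Tatdn2 and Dopey2 were each led by 1 library, Tatdn2 at 118, 1040.5 and 10.5 CPM and Dopey2 at 75.8, 93.6 and 1193 CPM, against 0.990, 6.35 and 1.74 and 27.1, 10.6 and 18.3 CPM with CT. DESeq2 gave an adjusted p under 0.05 to 23 of the 24 leading genes and no adjusted p to Dopey2. Over all 5907 protein-coding genes with a DESeq2 adjusted p, it called 106 higher and 143 lower. The direction of all 24 was kept in each of the alternatives that could be computed for them. These genes were chosen from the same counts for small p and no overlap. Neither result is therefore separate evidence for them.

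**Figure D3:**
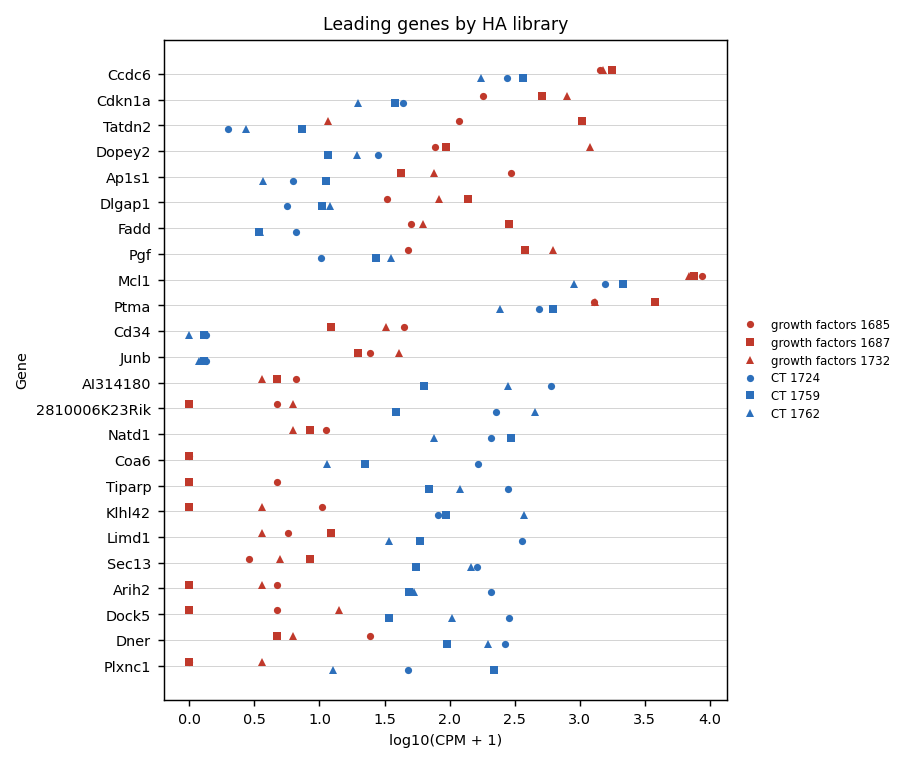
Level of the 12 leading higher (top) and 12 leading lower genes (bottom) in each HA library, as log10(CPM + 1). Red symbols are growth factor libraries and blue symbols CT libraries, with a shape for each library. By the way these genes were chosen, red and blue do not overlap in any row.

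The leading lower genes were nearly absent with growth factors and moderately read with CT. AI314180, a scaffold protein of the proteasome also called Ecpas, stood at 5.62, 3.74 and 2.63 CPM with growth factors and 599, 62.9 and 280.2 CPM with CT. Its 3 treated libraries held 9 reads together against 3473 in CT (log2 -6.24, SE 1.29, edgeR adjusted p = 0.104). The authors' deposited table gives its transcript a log2 value of 6.35 for EmGel minus growth factor gel, at a false discovery rate of 0.00187. Sec13 works in the coat of vesicles that leave the endoplasmic reticulum and in the nuclear pore, and stood at 1.87, 7.49 and 3.95 against 161, 54.7 and 145 CPM. Coa6, an assembly factor of cytochrome c oxidase, had 0 reads with growth factors and 621 with CT, which makes it at least 37.6-fold lower by a floor of 3 reads over the group. Tiparp, a mono-ADP-ribosyltransferase, had 4 reads against 1690. These counts show how few reads the lower side rested on in the treated group.

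Surface receptors and regulators of ubiquitin were found here as well. Dner, a Notch-related membrane protein of neurons, stood at 23.4, 3.74 and 5.27 CPM against 266, 94.6 and 198 CPM. Plxnc1, a semaphorin receptor, had 2 reads with growth factors and 932 with CT, a CPM ratio of 0.0118 (95% interval 0.00143 to 0.0428) by counting error alone. Dock5, an activator of Rac, was at 3.75, 0 and 13.2 against 283, 33.2 and 103 CPM, whereas injury without hydrogel gave 98.8 to 381 CPM. Arih2, an E3 ubiquitin ligase, was at 3.75, 0 and 2.63 against 206, 47.8 and 52.1 CPM. Klhl42, a substrate adaptor of cullin ligases, stood at 9.36, 0 and 2.63 against 80.2, 93.7 and 373 CPM, and the LIM-domain scaffold Limd1 at 4.68, 11.2 and 2.63 against 361, 58.3 and 33 CPM. Natd1 was at 10.3, 7.49 and 5.27 against 207, 294 and 74.3 CPM and 2810006K23Rik at 3.75, 0 and 5.27 against 227, 38.1 and 456 CPM. The 517 genes lower at an unadjusted p under 0.05 had a median of 1.81 CPM with growth factors, and 120 of them were at 0 in that group, while the 319 higher genes had a median of 32.8 CPM with CT. The shallower depth of the treated group moves with these values, and its part in them was not tested.

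Ligands and receptors of the EGF and FGF families lay on both sides of 0. Of 23 genes listed, 17 were in the table and 10 were tested, 5 with a positive and 5 with a negative difference, and the median log2 was 0.27 beside -0.11 for all genes, of which 47.3% were positive. This median did not hold its sign: it was positive in 16 of 22 alternatives and ranged from -1.47 to 1.23. Hbegf, a ligand of Egfr that is shed from the cell surface, stood at 419.5, 161 and 764 CPM with growth factors and 141, 126 and 144 CPM with CT. Its treated libraries lay above CT, library 1687 only just (log2 1.71, SE 0.74, edgeR adjusted p = 0.33). Fgf2, basic FGF, was at 50.6, 198 and 48.7 against 18.8, 25.4 and 19.7 CPM, without overlap (log2 2.20, SE 1.14, edgeR adjusted p = 0.4). Tgfa, another Egfr ligand, was at 5.62, 243 and 77.7 against 91.7, 315 and 14.7 CPM, and the groups overlapped throughout.

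Egfr itself had 8, 0 and 2 reads with growth factors and 207, 152 and 675 with CT. This corresponds to 7.49, 0 and 2.63 against 68.3, 45.9 and 130.3 CPM, with every treated library below every CT library (log2 -4.40, SE 1.57, edgeR adjusted p = 0.277). The 3-read floor of library 1687 lies below the lowest CT value. Without hydrogel Egfr was at 1.67 to 45.5 CPM, a range that overlapped the treated values and ended just below the lowest CT library. DESeq2 gave Egfr an adjusted p of 0.0369, the authors' deposited table a false discovery rate of 0.103, and its sign was negative in 22 of 22 alternatives. Fgfr3, an FGF receptor of astrocytes, was read in 1 of the 3 treated libraries (0, 0 and 25 CPM) and sparsely in CT (0, 0.302 and 0.965 CPM), so its difference rests on library 1732.

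Downstream of the receptors, kinases and brakes went in different directions. In the list of RAS, MAP kinase and PI3 kinase genes 21 of 35 were tested, 9 positive and 12 negative, with a median of -0.18. Nras, a small GTPase of the RAS family, stood at 637, 378 and 1955 CPM with growth factors and 278, 144 and 215 with CT, without overlap (log2 2.22, SE 0.73, edgeR adjusted p = 0.274). Pik3r1, the regulatory subunit of PI3 kinase, was at 945, 472 and 868 against 2132, 736 and 963 CPM and overlapped between groups. Among 12 of 24 feedback and target genes tested, 6 were positive and 6 negative, with a median of 0.08 (same sign in 14 of 22 alternatives). Without overlap 0 of the 12 lay higher and 2 lower, beside 3.83% and 13.1% of all protein-coding genes. These 2 were the brakes Spry2 and Spred2. Spry2, a Sprouty inhibitor of receptor signalling, stood at 13.1, 18.7 and 9.22 against 121, 32.9 and 439 CPM (log2 -3.87, SE 1.15, edgeR adjusted p = 0.253). Spred2, which blocks activation of Raf, stood at 20.6, 3.74 and 17.1 against 54.4, 69.8 and 257 CPM (log2 -3.14, SE 1.27, edgeR adjusted p = 0.301). The related Spred1 overlapped, at 589, 74.9 and 307 against 225, 894 and 562 CPM. Ccnd1, the cyclin D1 gene that growth factors induce, was at 57.1, 745 and 697 against 103, 193 and 168 CPM, with library 1685 below all CT libraries and the other treated libraries above them.

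**Figure D4:**
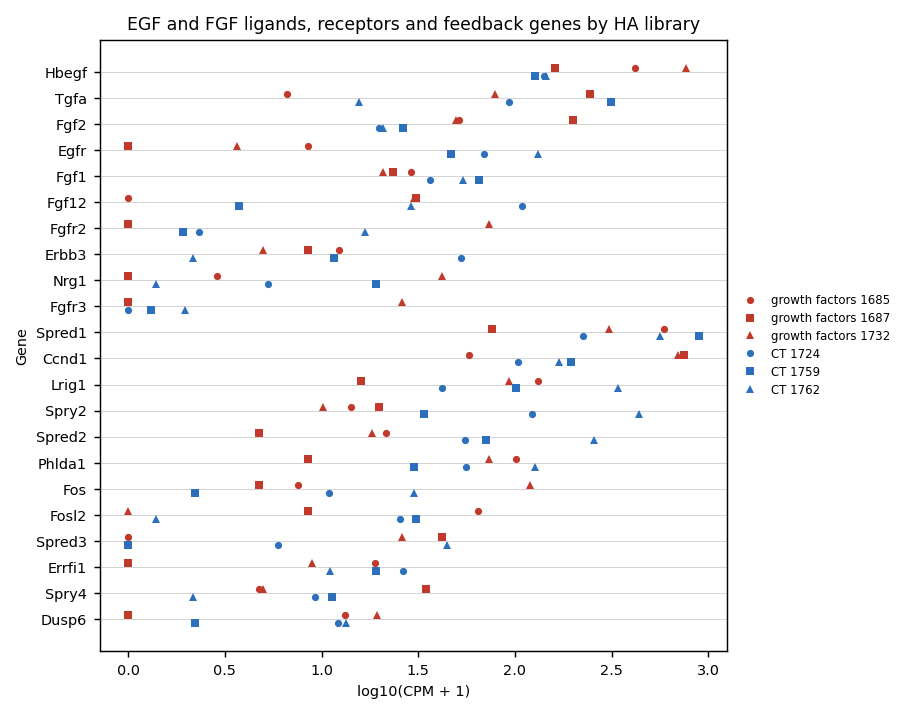
Tested EGF and FGF ligands and receptors (upper rows) and feedback and target genes (lower rows) in each HA library, as log10(CPM + 1), red for growth factors and blue for CT, a shape for each library. Hbegf and Fgf2 lie higher in all red libraries and Egfr, Fgf1, Spry2 and Spred2 lower, while the other rows overlap.

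Neurotrophin receptors, the targets of the factors in the column names, overlapped between the groups. Ntrk2, the BDNF receptor and in astrocytes mainly a truncated form, stood at 1093, 805 and 2193 CPM with growth factors and 1487, 991 and 2291 CPM with CT (log2 -0.22, SE 0.58, edgeR adjusted p = 0.892). The ranges overlapped almost fully, which does not show that the level was equal. Ntrk3, the NT3 receptor, had 8 reads with growth factors and 69 with CT. Of 12 genes on this list 4 were tested, with a median log2 of -0.10 (same sign in 16 of 22 alternatives). At an unadjusted p under 0.05 stood 0 of the 4, beside 13.6% of all protein-coding genes, and so few genes show little.

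Markers of astrocytes were well read in both groups and shared no common direction. All 23 listed markers found in the table were tested, 12 positive and 11 negative, with a median log2 of 0.03 that kept its sign in 9 of 22 alternatives. At an unadjusted p under 0.05 stood 0 of them, beside 13.6% of all protein-coding genes tested. Their summed level ran from 72542 to 99309 CPM with growth factors and from 56840 to 115837 CPM with CT. Gfap, the intermediate filament whose promoter drives the Cre, stood at 13264, 25185 and 19858 against 9317, 12380.1 and 14868 CPM (log2 0.67, SE 0.42, edgeR adjusted p = 0.479). Aqp4, the water channel of astrocyte endfeet, stood at 6923, 2811 and 6977 against 5162, 6292 and 10511 CPM. The glutamate transporter Slc1a2 ranged from 8140 to 26208 CPM with growth factors and from 9290 to 27511 CPM with CT. In such tissue, fewer cells of a type and less RNA per cell cannot be told apart.

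Reactive astrocyte genes had higher summed levels with growth factors after TMM scaling, carried mostly by metallothioneins and a protease inhibitor. The sum was 102735 to 165850 CPM with growth factors and 52610 to 95218 CPM with CT, and 15 of 20 tested genes (of 33 listed) had positive differences with a median of 0.46. With limma voom and sample weights this median was -0.05. The lack of overlap between the sums rests on TMM scaling. TMM set treated libraries 1685, 1687 and 1732 at 1067902, 267183 and 759191 reads. Their sizes before it were 1558897, 287111 and 1064675 reads, so TMM raised their CPM. For CT libraries 1724 and 1759 it set 3030717 and 3308368 rather than 2873567 and 3257872 reads, which lowered their CPM. For CT library 1762 it set 5179165 rather than 5829994 reads, which raised its CPM. At the sizes before TMM, the sum of treated library 1687 would lie just below that of CT library 1759. Sums under further scalings were not computed. Mt1, a metallothionein that binds zinc and copper, stood at 73455, 51972 and 88486 against 25668, 48544 and 30338 CPM (log2 1.03, SE 0.38, edgeR adjusted p = 0.277). Mt2 stood at 57084, 30623 and 65262 against 16920.4, 35192 and 19317 CPM, and its treated library 1687 was below CT library 1759. Serpina3n, a secreted protease inhibitor of reactive astrocytes, was at 21635, 17879 and 10341 against 7937, 8604 and 3085 CPM (log2 1.34, SE 0.48, edgeR adjusted p = 0.277). It lay without overlap after TMM, whereas at the sizes before TMM treated library 1732 would lie below CT library 1759. Vim, the filament vimentin, showed no such pattern at 889, 662 and 1077 against 885, 1067 and 617 CPM, and its small difference changed sign in 8 of 22 alternatives. The complement inhibitor Serping1 was low with growth factors, at 2.81, 0 and 6.59 against 49.8, 105 and 20.9 CPM (log2 -4.06, SE 1.53, edgeR adjusted p = 0.278).

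Matrix genes that let axons grow and those that inhibit them were both mixed. Of 36 laminins and other permissive matrix genes 19 were tested, 9 positive and 10 negative (median -0.15, same sign in 17 of 22 alternatives). Lama1 was not tested, with 1 read over the treated group and 17 over CT. Lama2, a laminin chain, stood at 7.49, 18.7 and 39.5 against 2.31, 1.81 and 2.12 CPM, and Nid1, a basement membrane linker, at 7.49, 7.49 and 1.32 against 567, 8.46 and 68.2 CPM. They lay on opposite sides (log2 3.35, SE 1.45, and -5.32, SE 1.67, each without overlap, in Nid1 by a narrow margin). Cdh2, N-cadherin, was at 3.75, 3.74 and 0 against 8.25, 80.1 and 32.4 CPM. Of 12 proteoglycan and tenascin genes 10 were tested, 5 positive and 5 negative (median 0.03, same sign in 12 of 22 alternatives). Cspg5, the proteoglycan neuroglycan C, stood at 1827, 1935 and 509.8 against 500.2, 619.9 and 288 CPM, with library 1732 within the CT range (log2 1.60, SE 0.61, edgeR adjusted p = 0.279). Chst11, a sulfotransferase that acts on chondroitin chains, was at 70.2, 112 and 748 against 131, 21.8 and 34.4 CPM, and 1 treated library supplied most of that. Ncan, neurocan, overlapped at 1216, 378 and 512 against 3087, 299.5 and 666 CPM.

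Genes of oligodendrocyte progenitors were present in the precipitate and had higher sums with growth factors. Of 10 tested markers 8 were positive, with a median log2 of 0.83 that kept its sign in 22 of 22 alternatives. Their sum was 4645 to 7621 CPM with growth factors and 2715 to 4132 CPM with CT. Gpr17, a receptor of maturing progenitors, stood at 477, 423 and 341 against 197, 139 and 33.2 CPM (log2 1.75, SE 0.66, edgeR adjusted p = 0.279). Cacng4, a subunit of glutamate receptor complexes, was at 758, 539 and 1607 against 412, 425 and 355 CPM, and the transcription factor Olig2 at 864, 1377 and 802 against 742, 557 and 234 CPM. After TMM scaling all 3 lay higher without overlap, 3 of the 10 tested markers beside 3.83% of all protein-coding genes. Cspg4, the proteoglycan NG2 that defines progenitors, overlapped at 500.0, 82.3 and 51.4 against 185, 188 and 24.7 CPM. Injury without hydrogel gave Gpr17 at 567 to 974 CPM, above both hydrogel groups.

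Other cell types were read at varying levels. Myelin and oligodendrocyte markers had 12 of 16 positive differences (median 0.60), and their sums overlapped, at 12928 to 29721 CPM against 11002 to 24130 CPM. Cldn11, the claudin of myelin, stood at 1679, 1666 and 2049.6 against 551, 973 and 165 CPM, without overlap (log2 1.67, SE 0.60, edgeR adjusted p = 0.277). Microglia and macrophage markers had 8 of 12 positive (median 0.67), and sums of 1490 to 1825 CPM against 384 to 1705 CPM. C1qa, a complement subunit of microglia, was at 315, 255 and 40.8 against 10.2, 50.5 and 0.193 CPM, and Cx3cr1 at 272, 475 and 71.1 against 89.7, 10.9 and 3.48 CPM. Both overlapped through library 1732. Others went the other way, among them Lyz2, a lysozyme of macrophages and the most read marker, at 181, 329 and 778 against 969, 423 and 93.3 CPM (log2 -0.20, SE 0.85). C1qb, a subunit of the same complex as C1qa, was at 139.5, 3.74 and 32.9 against 185, 47.2 and 26.6 CPM (log2 -0.52), and Laptm5, a lysosomal membrane protein, at 4.68, 7.49 and 3.95 against 70.0, 16.9 and 0.579 CPM (log2 -2.48, SE 1.39). C1qb and Laptm5 were chosen after their values were seen, and their groups overlapped. C1qc, a further subunit of that complex, lay higher without overlap (log2 1.48, SE 0.96, edgeR adjusted p = 0.503). It was the 1 of 12 tested markers to do so, beside 3.83% of all protein-coding genes. Of neuron markers 3 of 8 were positive (median -0.27). Nefm, a neurofilament, stood at 465, 1598 and 315 against 297, 91.9 and 243 CPM and Snap25, a protein of synaptic release, at 91.8, 48.7 and 2.63 against 1066, 19.9 and 953 CPM. The first lay without overlap after TMM scaling and the second overlapped through library 1759. Endothelial and mural markers had 2 of 18 tested, fibroblast markers 7 of 14 (median -0.29), Schwann cell markers 5 of 12 (median 0.44) and ependymal markers 4 of 12 (median 0.55). Pdgfra, Aif1, Csf1r, Pecam1 and Rbfox3, further defining markers of these cells, were on the lists but not among the genes tested. The part of such cells in any astrocyte gene's difference was not tested.

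Genes of cell division lay on both sides of 0. Of 30 listed, 13 were tested, 8 positive and 5 negative (median 0.18, same sign in 18 of 22 alternatives). At an unadjusted p under 0.05 stood 0 of the 13, beside 13.6% of all protein-coding genes. Mki67, a protein of cycling cells, stood at 37.5, 146 and 50.1 against 87.8, 64.1 and 5.21 CPM (log2 0.56, SE 1.25). Ccnd2, cyclin D2, was at 276, 808 and 244 against 564, 551 and 628 CPM. Ranges overlapped in both.

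Regulators of apoptosis had mostly negative differences, unlike Mcl1. Of 12 tested, Mcl1 included, 4 were positive and 8 negative, beside 47.3% positive over all protein-coding genes. The median was -0.72 and kept its sign in 22 of 22 alternatives. Their summed level went the other way, at 7142 to 8784 CPM with growth factors and 1424 to 2690 CPM with CT, most of it from Mcl1. Bcl2, a survival protein of the same family, stood at 2.81, 15 and 31.6 against 184, 71.6 and 162 CPM, below CT in all treated libraries (log2 -3.08, SE 1.18, edgeR adjusted p = 0.284). Bax, which opens the mitochondrial membrane, was at 16.9, 15 and 1.32 against 8.25, 160.2 and 44.2 CPM and overlapped. Bcl2l11, the killer protein Bim, had 0 reads with growth factors and 56 with CT, at least 3.39-fold lower by the floor of 3 reads.

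Immediate early and heat shock genes were the list with the second highest median. Of 13 tested, 9 were positive, with a median of 1.15, and their summed level was 4513 to 7774 CPM with growth factors and 2786 to 3184 CPM with CT. Most of that sum came from Hsp90ab1, a chaperone of the Hsp90 family, at 4440.5, 5719 and 2757 against 1828, 2359.8 and 1634 CPM (log2 1.15, SE 0.46, edgeR adjusted p = 0.298). Atf3, a transcription factor induced by stress, had 55 reads in the treated group, all in libraries 1685 and 1687, and 0 in CT, at least 101-fold higher by the floor of 3 reads. Dnajb1, a partner of Hsp70, went the other way, with 2 reads against 462 and a CPM ratio of 0.0238 (95% interval 0.00287 to 0.0865) by counting error alone. Jun overlapped, at 251, 0 and 13.2 against 18.5, 65.3 and 83.2 CPM.

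Proteasome and ribosomal protein genes had higher sums with growth factors. Of 33 proteasome genes tested (42 listed) 24 were positive, with a median of 0.81. It kept its sign in 22 of 22 alternatives but ranged from 0.01 to 1.04. Without overlap 2 of the 33 lay higher and 2 lower, beside 3.83% and 13.1% of all protein-coding genes. The lower ones were Psmb7 (log2 -0.92, SE 0.95) and Psmb6 (log2 -1.66, SE 1.05). The proteasome sum was 5864 to 9249 CPM against 3162 to 3455 CPM. Psmd7, a subunit of the regulatory cap, stood at 764, 786 and 1675 against 106, 284 and 278 CPM, without overlap (log2 2.27, SE 0.69, edgeR adjusted p = 0.253). Psmd11 and Psmd13, further cap subunits, each rested on 1 treated library, at 81.5, 2489 and 391 and 1185, 105 and 29 CPM. Of 61 ribosomal protein genes 34 were positive (median 0.29, and -0.06 with a correction for transcript length), and their sum was 14402 to 18270 CPM against 10169 to 11128 CPM. Of these 61, 6 lay higher and 6 lower without overlap, beside 3.83% higher and 13.1% lower over all protein-coding genes. Rpsa and Rplp1 were among the higher ones, Rpsa at 1587, 2590.0 and 1772 against 710.1, 1032 and 612 CPM and Rplp1 at 1184, 1699 and 1389.6 against 629.9, 564 and 292 CPM. Rpl4, chosen after its values were seen as the most read of the lower ones, was at 536, 225 and 507 against 1062, 605 and 695 CPM (log2 -0.90, SE 0.59). Ribosomal protein genes have many processed copies in the genome, so how reads were shared among them is uncertain. Depth separated the groups as these sums and those of reactive astrocyte and progenitor genes did, and its part in them was not tested. All these sums use TMM scaling, and only that of reactive astrocyte genes was set against the sizes before TMM.

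**Figure D5:**
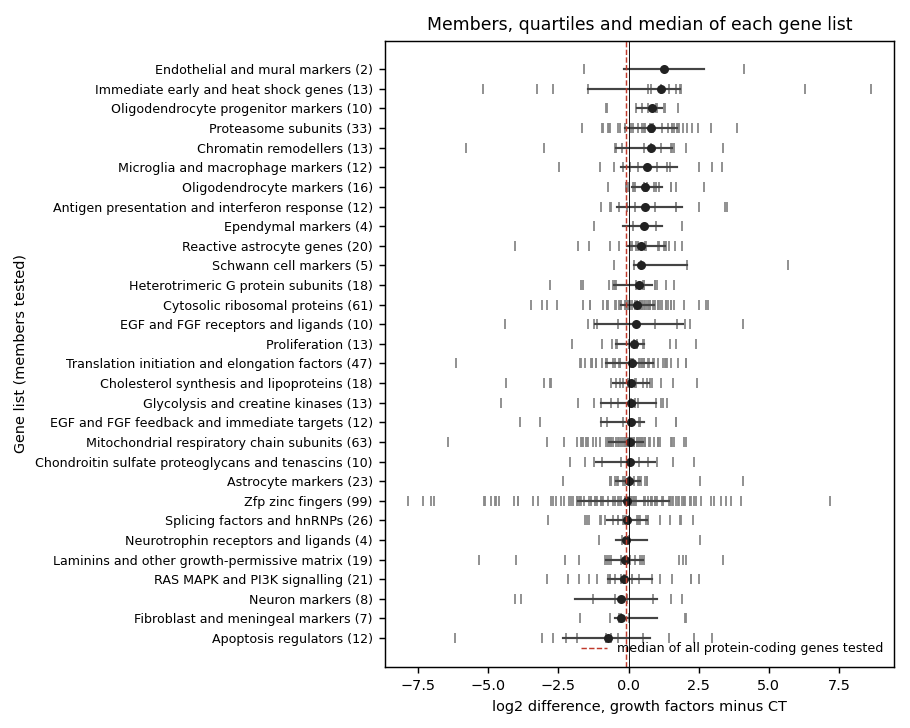
Log2 difference (growth factors minus CT) of each tested member of the 30 gene lists (grey ticks), with the quartiles as a bar and the median as a black point. The number tested is in brackets, and the dashed red line is the median of all protein-coding genes tested, -0.11. Within nearly every list members lie on both sides of 0.

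Enzymes of metabolism went both ways. Ckb, the brain creatine kinase that buffers ATP, stood at 9951, 13069.7 and 10557 against 3082, 6841 and 6984 CPM, without overlap after TMM scaling (log2 0.99, SE 0.43, edgeR adjusted p = 0.335). It made up most of the glycolysis and creatine kinase sum of 11835 to 15570 CPM against 4549 to 11051 CPM, while the list's 13 tested genes had 7 positive and a median of 0.09 (same sign in 17 of 22 alternatives). Pkm, the pyruvate kinase, had 4 reads against 511, or 0.936, 0 and 3.95 against 11.2, 93.4 and 32.4 CPM, below the 70.3 to 323 CPM seen without hydrogel. In cholesterol synthesis and lipoproteins 9 of 18 were positive (median 0.10, same sign in 18 of 22 alternatives). Cyp51, a demethylase of sterol synthesis, stood at 698, 1314 and 765 against 245, 227 and 446 CPM (log2 1.60, SE 0.71). Its treated libraries lay above CT without overlap.

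The same treatments in flow-through RNA, the part not precipitated, gave shallower data. With 5 libraries of growth factors and 4 of CT, 577 protein-coding genes could be tested there, 0 passed an adjusted p of 0.05 and 23 (3.99%) stood at an unadjusted p under 0.05. Of the 24 leading genes, 2 could be tested in flow-through. Mcl1 had a log2 difference of 0.48 there (SE 0.78, edgeR adjusted p = 0.972) beside 2.33 in HA. Ptma had 1.16 (SE 0.62, edgeR adjusted p = 0.972) beside 2.23. Mt2 had -1.56 in flow-through (SE 0.67, edgeR adjusted p = 0.972) beside 1.10 in HA, so the signs differed. The difference between the fractions was not tested, and Egfr was not analysed in flow-through.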

How the data were processed

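Members and gene lists were chosen with earlier results of these data known. RNA of the precipitated and flow-through fractions was amplified with a low-input kit and sequenced in pairs, per the labels' protocols. CASAVA 1.8.2, edgeR and build mm10 are named in the submitters' processing notes. The aligner, read counter and strand setting were not given in the sources used here, so overlapping genes and near-identical copies are uncertain. The authors deposited whole-number counts per transcript, with their own log2 fold changes, p-values and false discovery rates per the file headers. A further 45 columns of per-sample values were not used.

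Counts were summed per gene symbol (9363 in HA). The 136 rows without a symbol were left out. Gene type and position came from GENCODE M21, matching 99.6% of named rows. Library size and TMM left out 436 loci of ribosomal RNA reads (Yam1, Lars2, Gm and Mir rows), which stayed in the fit. Total counts per library ran from 7940025 to 12604450. Chi-square per degree of freedom between the 6 libraries was 53.0 to 209, so none was a copy.

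The 10 HA libraries (4 injury only, 3 CT, 3 growth factors) shared one fit with edgeR 4.0.16 in R 4.3.3 (quasi-likelihood, filterByExpr minimum count 10, two-sided, Benjamini-Hochberg over all genes tested, threshold 0.05), tested on simulated data. The 13 flow-through libraries were fitted likewise. SE is the log2 difference divided by the root of F. Counting ratios have 95% exact binomial intervals. Named genes were those past adjusted p 0.05, or, with fewer than 20, 12 of smallest p per direction without overlap, then per list the 4 most read members and those with an unadjusted p under 0.05, and 8 fixed genes (Egfr, Gfap, Vim, Aqp4, Fgfr3, Lama1, Mki67, Mcl1). A few were left out of the text for length, and some are not reported here. Alternatives used DESeq2 1.42.0 and limma 3.58.1. Promoters were RefSeq's for GRCm38.p6.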

Additional observations from a re-analysis of the deposited data

How the results depend on the processing

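The 6 genes past an adjusted p of 0.05, all ribosomal RNA loci, came to 269 with DESeq2's Wald test, 2 with an offset for GC content, and 0 with DESeq2's size factors in edgeR, without those loci in the fit, with protein-coding genes alone, with 2 groups in the fit, with an offset for transcript length or with the deposited transcript rows. Protein-coding genes past the threshold were 0 in the main test, 249 with DESeq2 and 1 with limma voom and sample weights, and 0 in the other alternatives that kept all libraries. Leaving out 1 library gave 0 to 10 genes, and 0 to 2 protein-coding genes, the 2 (Exosc3 and Parp4) without library 1685. Without library 1687, 1724, 1759, 1762, 9843 or 9874 the count was 0, and without 9935 it was 3. The cause of these shifts was not tested. The difference in protein-coding share was -25.1 points with Yam1 and Lars2 alone left out, and -29.1 to -19.3 points without 1 library. Protein-coding genes at an unadjusted p under 0.05 were 836, with 532 on 2 groups in the fit, 422 with limma voom, 1105 with DESeq2 and 1189 without the low-count filter. They were 1030 to 1057 without 1 growth factor library and 651 to 744 without 1 CT library. Of 181 named genes, 55 had another sign in at least 1 of 22 alternatives. Col1a2 reversed with an unadjusted p under 0.05 in one of the fits. Its log2 difference, 0.02, ranged from -3.92 (without library 1732) to 0.54 with 1 library left out. No paired analysis was possible because the compared groups share no title number. Library 1687, with 282224 protein-coding reads, limits what low values can show.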

Other observations

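Gene groups outside the lists above had members on both sides. Of 99 tested Zfp zinc fingers, a family of DNA-binding proteins, 13 were lower and 3 higher at an unadjusted p under 0.05 with growth factors, beside 8.38% lower and 5.17% higher over all protein-coding genes, and the median was -0.04 (same sign in 17 of 22 alternatives). Zfp81 stood at 1.87, 0 and 9.22 CPM with growth factors and 258, 87.7 and 19.7 CPM with CT, and Zfp106 at 199, 337 and 676 against 82.5, 60.5 and 166 CPM. After TMM scaling both lay without overlap, in opposite directions. Mitochondrial respiratory chain genes had 32 of 63 positive (median 0.05, same sign in 11 of 22 alternatives). Ndufa4, a subunit of the chain, was at 293, 97.3 and 273 against 558, 548 and 727 CPM, below CT in every treated library. Translation factors had 28 of 47 positive (median 0.13). Without overlap 3 of the 47 lay higher and 6 lower, beside 3.83% and 13.1% of all protein-coding genes. Eif3a, the large subunit of initiation factor 3, lay higher at 3887, 3163 and 3369 against 1637, 1295 and 1205 CPM (log2 1.33, SE 0.52, edgeR adjusted p = 0.287). Eef2k, the kinase that inhibits elongation factor 2, lay lower without overlap, with 1 read against 360, a CPM ratio of 0.0153 (95% interval 0.000386 to 0.0857) by counting error alone (log2 -6.15, SE 1.86, edgeR adjusted p = 0.253).

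Interferon and antigen presentation genes had 7 of 12 positive (median 0.59, and -0.98 without library 1685). Bst2, an interferon-induced protein that tethers viruses, stood at 473, 1186 and 14.5 against 9.57, 80.7 and 56.4 CPM, with library 1732 within the CT range. Chromatin remodellers had 8 of 13 positive (median 0.81, and -0.05 without library 1687), heterotrimeric G protein subunits 10 of 18 (median 0.39, same sign in 16 of 22 alternatives) and splicing factors 12 of 26 (median -0.05). Gna13, a G protein alpha subunit, was at 433, 3892 and 543 against 440.2, 448 and 1628 CPM, and its highest value was that of library 1687.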
